A study of Mus musculus with 4 samples.

Results

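The genes of the aminoacyl tRNA synthetases, 34 of the 21670 protein-coding genes analysed, were chosen by name from the GENCODE M21 annotation. Of these, 19 encode enzymes of the cytosol and 15 enzymes of mitochondria. Gars and Kars, which each encode forms for both compartments, were counted as cytosolic. The data were ChIP-seq peak lists from cultured neural stem cells of wild-type (WT) C57BL/6J mouse embryos at E12.5, grown with EGF at 20 ng/ml and FGF at 10 ng/ml. All 4 samples shared this genotype, strain and culture. They were 1 immunoprecipitation of the demethylase PHF2 (Cell signaling antibody D45A2), 1 of the histone mark H3K9me2 (Abcam antibody ab1220), and 1 input for each. The inputs were not analysed here, and whether a sample came from 1 culture or from pooled embryos is not stated in the sources used here. There were no replicates, and a peak list gives no depth, so every value describes these lists and carries no spread between cultures.

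Aminoacyl tRNA synthetases join each amino acid to its tRNA, the step that sets how codons are read. Cytosolic and mitochondrial enzymes are all encoded in the nucleus, mostly by separate genes, and several cytosolic enzymes sit together in the multisynthetase complex. When amino acids run short, the transcription factor ATF4 induces many cytosolic synthetase genes through C/EBP-ATF response elements in their promoters. PHF2 has a PHD finger that binds H3K4me3, the mark of active promoters, and a Jumonji domain described as removing H3K9me2, a mark of silent chromatin.

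The lists held 5992 PHF2 peaks and 36111 H3K9me2 regions on chromosomes 1 to 19 and X, with coordinates on mm10. The deposited PHF2 score, whose scale is not stated in the sources used here, ran from 100.02 to 3226.07 and is the authors' value, used only to order peaks within the list. All 6 neural stem cell genes examined (Nes, Sox2, Vim, Hes1, Pax6 and Fabp7) had a PHF2 peak, with scores from 709.63 to 2021.85, where the share of genes with a peak at like promoter CpG content would give 2.91 of 6. Of 11 marker genes of neurons, glia, blood and endothelium 0 had one, where the share at like content would give 1.69 of 11. Most of these promoters are poor in CpG, but those of Tubb3, Rbfox3, Snap25 and Mbp lay above the median CpG content of all protein-coding genes. A peak is not a measure of expression, so the labelled cell type could not be checked beyond these counts.

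PHF2 peaks lay at most synthetase genes, but most of those peaks had low scores. A gene counted when a peak overlapped, by 1 bp or more, the 1 kb on either side of any of its starts. By this rule 21 of the 34 genes had a peak, 61.8% (95% Wilson interval 45% to 76.1%), where 29.1% of all protein-coding genes had one. No test was made, since genes are not replicates, and the interval covers counting error only. Each of the 21 genes had 1 peak, and Hars and Hars2 shared theirs, which left 20 distinct peaks. In all 21 genes the peak covered an annotated start and so lay on the start of the first exon, as it did in 95.6% of all genes with a peak.

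Among the cytosolic enzymes 13 of 19 genes had a peak, 68.4% (46.0% to 84.6%). Among the mitochondrial enzymes 8 of 15 had one, 53.3% (30.1% to 75.2%). The intervals of the 2 classes overlapped widely, but they take each gene as independent. Hars and Hars2, of different classes, share their peak, so the intervals cannot decide the order of the 2 shares. The difference between the 2 classes was not tested. A total of 12 amino acids have a cytosolic and a mitochondrial gene of matching name in the set. Both genes had a peak for histidine, isoleucine, serine and tyrosine, 4 pairs. Only the cytosolic gene had one in 5 pairs, for alanine, cysteine, threonine, valine and tryptophan. Only the mitochondrial gene had one for arginine (Rars2), and neither had one for leucine and asparagine. By the 2 structural classes of synthetase, counted after the values were seen, 9 of 16 class I genes and 11 of 17 class II genes had a peak, with Eprs, which joins an enzyme of each class, left out.

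The scores fell into a small group above and a larger group below the typical promoter peak. The highest was 642.61 at Dars, which encodes cytosolic aspartyl-tRNA synthetase (chr1:128416194-128417785, centre 370 bp downstream of the nearest start). Yars2, the mitochondrial tyrosyl enzyme, followed with 580.58 (chr16:16302329-16304067). Gars, the glycyl enzyme of both compartments, had 391.22 and the longest of these peaks, 1824 bp (chr6:55037576-55039399). These 3 were the only synthetase peaks in the higher-scoring 25% of the list, and Dars, ranked 541 of 5992, the only one in the higher-scoring 10%. Eprs, the fused glutamyl and prolyl enzyme of the multisynthetase complex, had 303.77 (chr1:185362207-185363782). Vars, the cytosolic valyl enzyme, had 247.13 (chr17:35000547-35002360), and Ears2, the mitochondrial glutamyl enzyme, had 240.31 (chr7:122066686-122068261). Cars, the cytosolic cysteinyl enzyme, had 233.28, the last score above the median of 231.72 over all genes with a peak.

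The other 14 genes with a peak all scored under 200, a gap that left no synthetase gene between Cars and the pair Hars and Hars2 at 165.99. Over all protein-coding genes with a peak, 40.3% scored under 200. Below 150 lay 10 of the 21 synthetase genes, 6 cytosolic and 4 mitochondrial, against 21.8% of all genes with a peak. Wars (161.63), Rars2 (155.52), Farsa (139.65), Aars (139.1), Sars (131.97), Iars (130.2), Pars2 (128.2) and Tars (125.67) filled the middle of this range. The lowest scores were at Yars (122.82, chr4:129189555-129190577), Iars2 (119.8, chr1:185328429-185329588), Fars2 (117.41, chr13:36117007-36118565) and Sars2 (102.85, chr7:28741745-28742637). Sars2, the mitochondrial seryl enzyme, ranked 5897 of 5992 and lay just above the lowest score in the list.

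**Figure D1:**
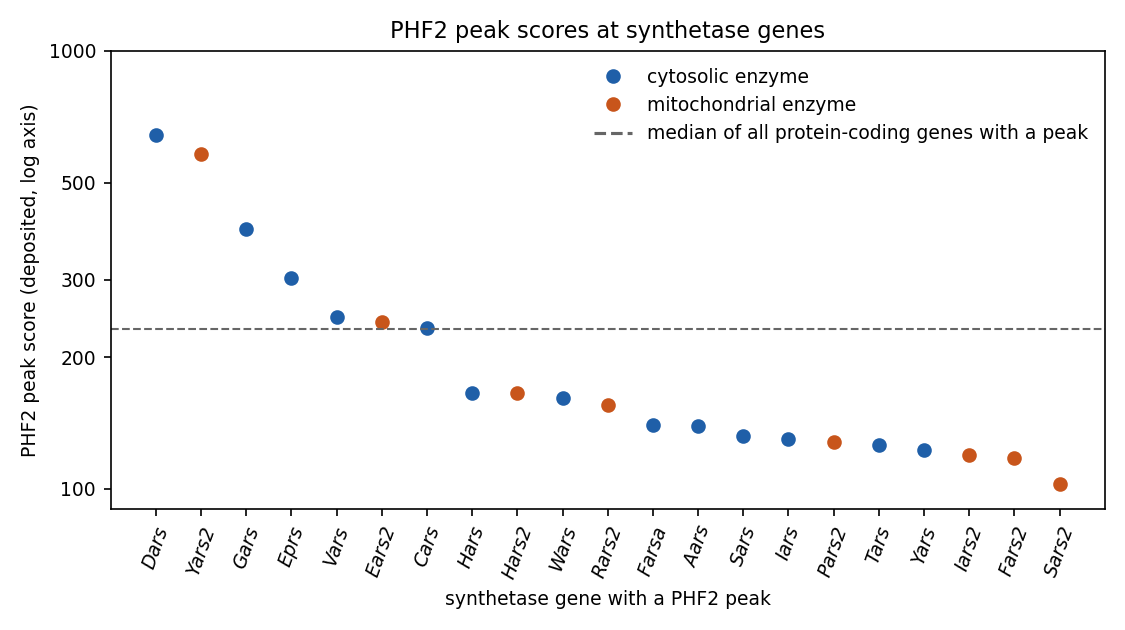
Deposited PHF2 peak score (log axis) of each synthetase gene with a peak, ordered by score, 1 point per gene, blue for cytosolic and orange for mitochondrial enzymes. The dashed line is the median over all protein-coding genes with a peak, 231.72; 7 genes lie above it and 14 below 200.

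The median score was 155.52 over the 21 genes, 161.63 over the 13 cytosolic and 141.86 over the 8 mitochondrial ones. Peak lengths ran from 829 bp (Pars2) to 1824 bp (Gars) with a median of 1128 bp, where all genes with a peak had a median of 1322 bp. When only the higher-scoring 50% of peaks was kept, 7 of 34 synthetase genes had one, 5 cytosolic and 2 mitochondrial, where 14.8% of all protein-coding genes did. With the higher-scoring 25% it was 3 of 34, where 7.35% of all genes did, and with 10% it was 1 of 34, where 2.84% did.

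Promoter CpG content within 1 kb of the starts, which goes with PHF2 peaks over all genes, did not order the synthetase genes as a whole in the same way. CpG observed/expected, the number of CpG dinucleotides divided by the number that the C and G content would give, was taken over the same windows. Its median was 0.529 for the 34 genes and 0.428 for all protein-coding genes. Over all genes it was 0.622 with and 0.319 without a peak, but over the synthetase genes 0.515 with and 0.567 without one. The reversed order was that of the cytosolic genes, 0.479 with and 0.594 without a peak, while the mitochondrial genes followed the order of all genes, 0.547 with and 0.497 without. With the 5'-most start alone the medians were 0.564 with and 0.582 without a peak for all 34 genes, 0.546 and 0.606 for the cytosolic and 0.631 and 0.568 for the mitochondrial ones. The order was not kept in 300-base RefSeq promoters, matched for 25 of the genes, where the medians were 0.739 with and 0.712 without a peak. Over all such promoters they were 0.824 and 0.397. Both the window and the set of synthetase genes differed there, so the change of order cannot be given to the window alone. The difference between the classes was not tested, and only 6 cytosolic and 7 mitochondrial genes lacked a peak. Cytosolic and mitochondrial genes had nearly the same median, 0.515 and 0.529.

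All protein-coding genes were split into 10 deciles of CpG observed/expected, and the share with a peak in each decile was given to each synthetase gene in it. Summed over the 34 genes this gave 14.1 genes, against 21 observed, a ratio of 1.49. For cytosolic enzymes it gave 7.98 against 13 observed, a ratio of 1.63, and for mitochondrial enzymes 6.15 against 8, a ratio of 1.30. With the higher-scoring 50% of peaks the sum was 7.08 genes against 7 observed, a ratio of 0.989. By class these peaks gave 4.08 against 5 observed for the cytosolic enzymes, a ratio of 1.22, and 2.99 against 2 for the mitochondrial ones, a ratio of 0.668. Each of these class values rests on 5 genes or fewer. Within their own CpG decile, 15 of the 21 genes scored below the median of the other genes with a peak and 6 scored above it. Among the other genes of its decile that had a peak, Dars stood above 91.1%, Yars2 above 89.1% and Gars above 76.1%, while Sars2 stood above only 1.44%.

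The deciles differed. All 6 synthetase genes of the sixth decile, where 35.0% of genes have a peak, had one (Farsa, Hars2, Pars2, Sars, Vars and Wars). All 4 of the ninth decile had one, where 60.1% of genes do (Gars, Iars2, Yars and Yars2). In the eighth decile only Dars, 1 of 6, had a peak, where 48.4% of genes do, and in the tenth, with 73.1%, 2 of 4 (Eprs and Ears2). In the seventh 5 of 7 had one, where 41.8% of genes do (Aars, Fars2, Rars2, Sars2 and Tars). In the fifth, with 22.4%, Iars had one and Cars2 had none. At the CpG-poor end, 2 of 5 had one in the fourth decile (Cars and Hars), where 8.77% of genes do, and Lars2, Qars and Tars2 had none. The value of Hars pools the windows of 2 starts, 0.349 pooled and 0.504 at the 5'-most start alone. Its peak is the one shared with Hars2 and so is counted in the fourth and in the sixth decile.

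**Figure D2:**
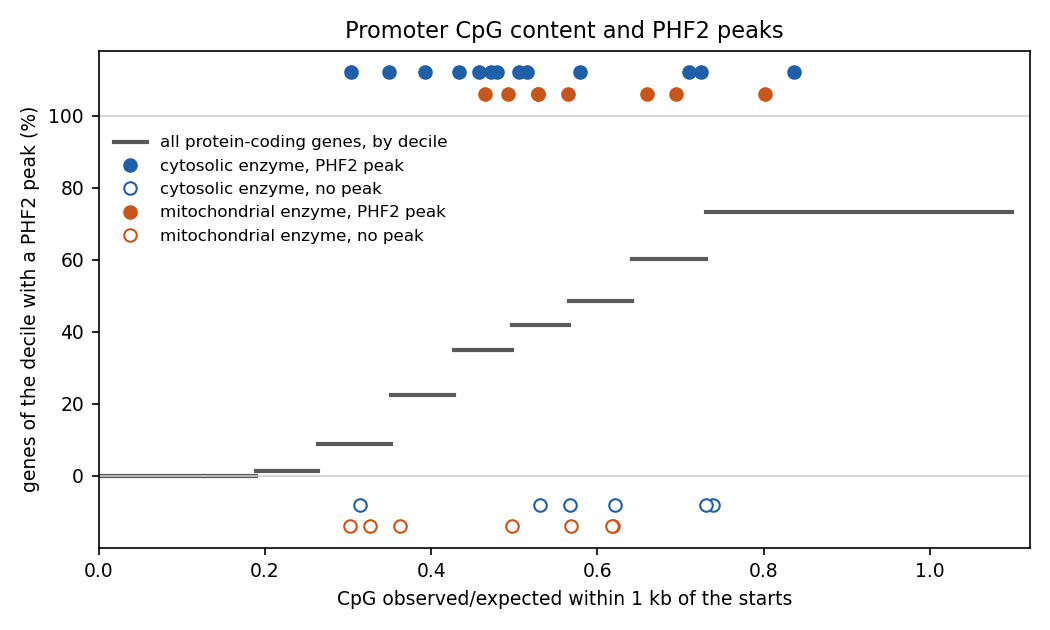
Share of protein-coding genes with a PHF2 peak (%, grey bars, 1 per decile) against CpG observed/expected within 1 kb of the starts; each bar spans its decile. Synthetase genes are points placed by CpG only, filled above the 100% line where they had a peak and open below the 0% line where they had none, blue for cytosolic and orange for mitochondrial enzymes. Open and filled points cover nearly the same range of CpG content.

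The 13 genes without a peak included 7 with promoters in the upper 3 deciles. These were Kars (CpG observed/expected 0.739) and Nars (0.731) of the tenth decile. Farsb (0.621), Nars2 (0.619), Wars2 (0.618), Vars2 (0.568) and Lars (0.567) belonged to the eighth. Kars encodes the lysyl enzyme of both compartments and Nars the cytosolic asparaginyl enzyme. Farsa and Farsb encode the alpha and beta subunits of cytosolic phenylalanyl-tRNA synthetase, and only Farsa had a peak (139.65, chr8:84856694-84857788). The other 6 genes without a peak were Aars2, Rars, Cars2, Tars2, Qars and Lars2, with values from 0.302 (Lars2) to 0.531 (Rars). The nearest PHF2 peak lay 3786 bp from a start of Cars2, and for the other 12 genes it lay more than 10 kb away, up to 801161 bp at Wars2.

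Dars, the highest-scoring gene, and Kars, the gene without a peak that had the highest CpG observed/expected, are shown as examples, picked after their values were seen. Both are RefSeq promoters of GRCm38.p6 (the mm10 assembly) of 300 bases, from 250 before to 50 after the RefSeq start: Dars at chr1:128417367-128417666 (minus strand) and Kars at chr8:112011305-112011604 (minus strand). CpG dinucleotides are in capitals, 14 in Dars and 27 in Kars.
Dars: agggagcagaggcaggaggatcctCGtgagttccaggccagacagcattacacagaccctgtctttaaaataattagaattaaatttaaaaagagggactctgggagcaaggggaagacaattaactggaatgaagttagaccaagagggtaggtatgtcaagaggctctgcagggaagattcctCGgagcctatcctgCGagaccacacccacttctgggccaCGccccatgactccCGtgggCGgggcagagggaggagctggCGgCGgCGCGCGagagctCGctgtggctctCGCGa
Kars: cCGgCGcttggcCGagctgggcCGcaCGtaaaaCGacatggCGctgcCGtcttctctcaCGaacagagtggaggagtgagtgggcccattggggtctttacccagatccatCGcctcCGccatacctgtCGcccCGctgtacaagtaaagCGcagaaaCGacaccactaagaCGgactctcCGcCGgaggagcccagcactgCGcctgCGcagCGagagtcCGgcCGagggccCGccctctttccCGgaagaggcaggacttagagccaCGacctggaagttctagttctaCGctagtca
This pair is not typical of the 26 RefSeq promoters that matched. The 15 of genes with a peak had a median of 19 CpG dinucleotides in these 300 bases, from 10 (Aars) to 36 (Eprs), and the 11 of genes without one had a median of 17, from 7 (Tars2) to 28 (Vars2). Over all promoters of protein-coding genes the medians were 24 with and 8 without a peak.

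The cytosolic enzymes were also split by the multisynthetase complex, a large assembly of synthetases and scaffold proteins. Of the 7 complex enzymes in the set, Dars, Eprs and Iars had a peak, 42.9% (95% Wilson interval 15.8% to 75%), and Kars, Lars, Qars and Rars had none. Outside the complex 10 of 12 cytosolic genes had one, 83.3% (55.2% to 95.3%), all but Farsb and Nars. The synthetase gene Mars, which had a peak (137.78) but is not in the set, was counted in neither group. Counting it would raise the share of the group it joined, so these shares hold only for the genes of the set. The CpG deciles gave 3.16 for the complex and 4.82 for the others. With the higher-scoring 50% of peaks the counts were 2 of 7 and 3 of 12. The intervals of the 2 groups overlapped, but they cover counting error only and cannot decide whether the groups differ. The difference between the 2 groups was not tested.

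Around the start of the principal transcript, peaks of both classes covered the start and the DNA just downstream. At the start itself 63.2% of the cytosolic, 53.3% of the mitochondrial and 25.9% of all protein-coding genes lay under a peak. At 1 kb downstream these shares were 15.8%, 13.3% and 9.98%, and at 1 kb upstream 5.26%, 0% and 3.28%. At 500 bp upstream the order of the classes turned, with 26.7% of the mitochondrial, 5.26% of the cytosolic and 11.1% of all genes under a peak, and at 500 bp downstream it was 53.3%, 63.2% and 25.0%. The centre of the peak lay within 500 bp of a start in all 21 genes, compared with 87.1% of all genes with a peak. It lay downstream in 11 of 13 cytosolic genes and in 4 of 8 mitochondrial genes, and in 72.4% of all genes with a peak. The other mitochondrial genes, Ears2, Fars2, Hars2 and Rars2, all shared their peak with a coding gene on the opposite strand, as described below. Peaks were shared in this way at 5 of 8 mitochondrial and 3 of 13 cytosolic genes, and Sars2, Hars and Yars among them had the centre downstream. Compartment and shared peaks cannot be told apart here. Gars (481 bp) and Iars2 (388 bp) had the centres farthest downstream, and Ears2 (210 bp upstream) and Wars (94 bp upstream) the farthest upstream.

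**Figure D3:**
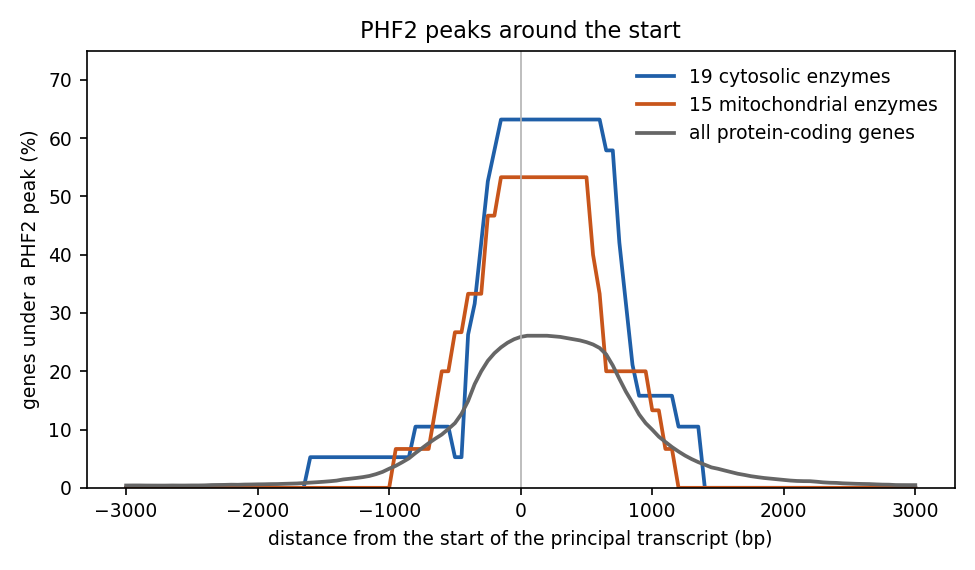
Share of genes under a PHF2 peak (%) at each distance from the start of the principal transcript (bp, downstream to the right), for 19 cytosolic enzymes, 15 mitochondrial enzymes and all protein-coding genes. Both synthetase curves are flat over the start, at 63.2% and 53.3%, and fall to 15.8% and 13.3% at 1 kb downstream.

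Many synthetase peaks also covered the promoter of a neighbouring gene on the opposite strand, so the peak could not be given to either gene. This held for 8 of the 21 genes with a peak, against 23.1% of all genes with a peak. Ears2 shared its peak with Ubfd1, 88 bp away from start to start. Fars2 shared with Lyrm4, a factor of mitochondrial iron-sulfur cluster assembly (114 bp), and Rars2 with Orc3, a subunit of the origin recognition complex (13 bp). Sars2 shared with Mrps12, a protein of the mitochondrial ribosome (182 bp), Wars with Wdr25 (98 bp), and Yars with S100pbp (33 bp). Hars and Hars2, the cytosolic and mitochondrial histidyl enzymes, have starts 26 bp apart on opposite strands of chromosome 18 and shared 1 peak of 1054 bp (36782481 to 36783534). Of the 8 mitochondrial genes with a peak, 5 were of this kind, and of the 13 cytosolic genes 3.

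A protein-coding start on the opposite strand lay within 1 kb of 9 of the 34 synthetase genes, and 8 of these 9 had a peak. Over all protein-coding genes with such a neighbour 58.3% had a peak. The exception was Kars, whose start lies 75 bp from that of Terf2ip, a telomere protein gene, and neither had a peak. Among the 25 synthetase genes with no such neighbour 13 had a peak, where 25.3% of all such genes did. By compartment these were 10 of 15 cytosolic and 3 of 10 mitochondrial genes (Iars2, Pars2 and Yars2).

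The RefSeq table held promoters for 25 of the 34 genes, 26 promoters in all since Aars2 has 2 (no entry for Cars, Hars, Hars2, Lars, Nars, Pars2, Rars, Vars and Wars). In all 15 matched genes with a PHF2 peak, the peak overlapped the 300 bases, and in 12 it covered them whole. Motifs were sought as letters on both strands, with N for any base. The core of the C/EBP-ATF response element, TGATGNAA, was in 5 of the 26 promoters (19.2%) and in 3.33% of 20054 promoters of protein-coding genes. The 5 genes were Aars, Gars, Iars, Tars and Yars, all cytosolic (5 of 12 matched, with 0 of 13 mitochondrial) and all with a PHF2 peak, which 15 of the 25 matched genes had. Their scores went from 122.82 (Yars) to 391.22 (Gars), with Aars at 139.1, Iars at 130.2 and Tars at 125.67.

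The stretch from 130 bases before to 50 bases after the RefSeq start is shown for these 5 genes because the motif was found in them and in none of the matched mitochondrial genes. On GRCm38.p6 it is Aars at chr8:111033712-111033891 (plus strand), Gars at chr6:55037871-55038050 (plus strand), Iars at chr13:49682000-49682179 (plus strand), Tars at chr15:11399609-11399788 (minus strand) and Yars at chr4:129189773-129189952 (plus strand). Capitals mark the motif in either direction, read 5' to 3' along the gene.
Aars: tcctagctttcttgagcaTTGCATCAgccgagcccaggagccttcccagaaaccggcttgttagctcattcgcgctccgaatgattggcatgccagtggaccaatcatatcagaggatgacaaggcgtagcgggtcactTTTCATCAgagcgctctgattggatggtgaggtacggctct
Gars: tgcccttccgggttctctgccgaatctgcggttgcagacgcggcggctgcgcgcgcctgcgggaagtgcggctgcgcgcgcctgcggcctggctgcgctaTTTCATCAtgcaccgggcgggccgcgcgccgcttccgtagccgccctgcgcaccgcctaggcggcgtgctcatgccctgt
Iars: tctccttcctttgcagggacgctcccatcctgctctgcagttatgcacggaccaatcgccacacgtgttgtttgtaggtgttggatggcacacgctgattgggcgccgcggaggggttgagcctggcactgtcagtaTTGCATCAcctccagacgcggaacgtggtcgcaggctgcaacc
Tars: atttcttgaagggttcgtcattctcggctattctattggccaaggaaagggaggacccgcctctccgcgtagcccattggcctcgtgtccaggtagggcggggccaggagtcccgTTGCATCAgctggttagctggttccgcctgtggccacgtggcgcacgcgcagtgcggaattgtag
Yars: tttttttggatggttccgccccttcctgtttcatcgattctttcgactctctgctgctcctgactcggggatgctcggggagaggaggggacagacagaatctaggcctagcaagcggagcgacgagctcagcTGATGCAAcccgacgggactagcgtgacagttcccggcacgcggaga
The motif lay near the start in all 5, at position 10 in Aars, -30 in Gars, 8 in Iars, -15 in Tars and 4 in Yars, counted from the first base of the RefSeq transcript as 1. Aars held a further copy at -112. A match of letters is not a measured binding site, and no factor other than PHF2 was measured here.

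Mitochondrial promoters held other motifs. The core of the NRF1 site, GCATGCGC, the site of a regulator of nuclear genes for mitochondria, was in Rars2, Vars2 and Wars2, 3 of 13 matched mitochondrial genes and 0 of 12 cytosolic ones (3.65% of all promoters). The YY1 motif AAGATGGC was in Aars2, Wars2 and Yars2 and in the cytosolic Farsa (3.1% of all promoters). Among these genes Rars2, Yars2 and Farsa had a PHF2 peak and Aars2, Vars2 and Wars2 had none, where 15 of the 25 matched genes had one. With so few genes no link of these motifs to PHF2 peaks was tested. The 5 mitochondrial genes are shown from 80 bases before to 50 after the start, with both motifs in capitals: Aars2 at chr17:45506752-45506881 (plus strand), Rars2 at chr4:34614877-34615006 (plus strand), Vars2 at chr17:35667543-35667672 (minus strand), Wars2 at chr3:99141010-99141139 (plus strand) and Yars2 at chr16:16302885-16303014 (plus strand).
Aars2: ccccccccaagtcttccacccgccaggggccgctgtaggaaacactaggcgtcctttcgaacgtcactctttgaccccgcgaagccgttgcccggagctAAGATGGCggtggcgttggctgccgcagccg
Rars2: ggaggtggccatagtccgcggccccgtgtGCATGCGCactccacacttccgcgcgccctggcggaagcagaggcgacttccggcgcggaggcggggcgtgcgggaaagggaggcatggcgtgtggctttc
Vars2: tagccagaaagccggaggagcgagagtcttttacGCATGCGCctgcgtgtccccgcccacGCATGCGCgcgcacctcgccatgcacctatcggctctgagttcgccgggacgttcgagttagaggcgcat
Wars2: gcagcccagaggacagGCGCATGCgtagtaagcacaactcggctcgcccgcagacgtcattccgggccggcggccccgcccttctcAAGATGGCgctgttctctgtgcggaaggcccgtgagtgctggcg
Yars2: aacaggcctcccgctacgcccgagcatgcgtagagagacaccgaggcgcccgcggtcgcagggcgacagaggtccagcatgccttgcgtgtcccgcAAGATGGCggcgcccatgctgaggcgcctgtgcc
The YY1 letters lay 7 to 20 bases into the transcript in Aars2, Wars2 and Yars2, and the NRF1 letters lay before the start in all 3 genes that held them. Of the other motifs, the E-box CACGTG was in 5 of 26 promoters (Aars, Ears2, Farsb, Iars and Tars; 8.06% of all promoters). The ETS motif CCGGAAGT was in Farsa and Rars2 (5.38% of all promoters). CCAAT was in 11 (42.3%, with 37.9% of all promoters), TATAAA in 4 (15.4%, with 12.1%), and CTCGCGAG, a palindrome that ZBTB33 reads, in 0 (1.28%).

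H3K9me2 regions were not found at any synthetase promoter. Within 1 kb of a start 0 of 34 genes had one (95% Wilson upper bound 10.2%), where 2.3% of all protein-coding genes did. At that share a set of this size would hold 0.781 genes with a region, so 0 is near the background. The caller of these regions is not stated in the sources used here and 55.6% of them had the shortest length, 73 bp, so a missing region does not show that the mark is absent. Within 5 kb there was 1 gene, Vars, where 12.2% of all genes had a region. That region (chr17:34999446-34999518) was intergenic, 1469 bp upstream of a Vars start, and lay 1028 bp from the edge of the Vars PHF2 peak. Lars came next at 5040 bp, followed by Nars2 (6812 bp), Nars (8209 bp), Lars2 (12450 bp), Kars (12866 bp) and Ears2 (16131 bp).

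Of these 7 genes, all within 20 kb of a region, 5 had no PHF2 peak, the exceptions being Vars and Ears2. Among all 34 synthetase genes 13 had no peak, and among all protein-coding genes 15364 of 21670 had none. The median distance from a start to the nearest region was 62600 bp in the 21 genes with a PHF2 peak and 26439 bp in the 13 without. Over all protein-coding genes these medians were 32180 bp and 35120 bp, so the order seen in the synthetase genes was not that of all genes, and it was not tested. Sars2 (351087 bp) and Farsa (218766 bp) lay farthest from any region, and Iars2, Yars and Fars2 also lay over 100 kb away.

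**Figure D4:**
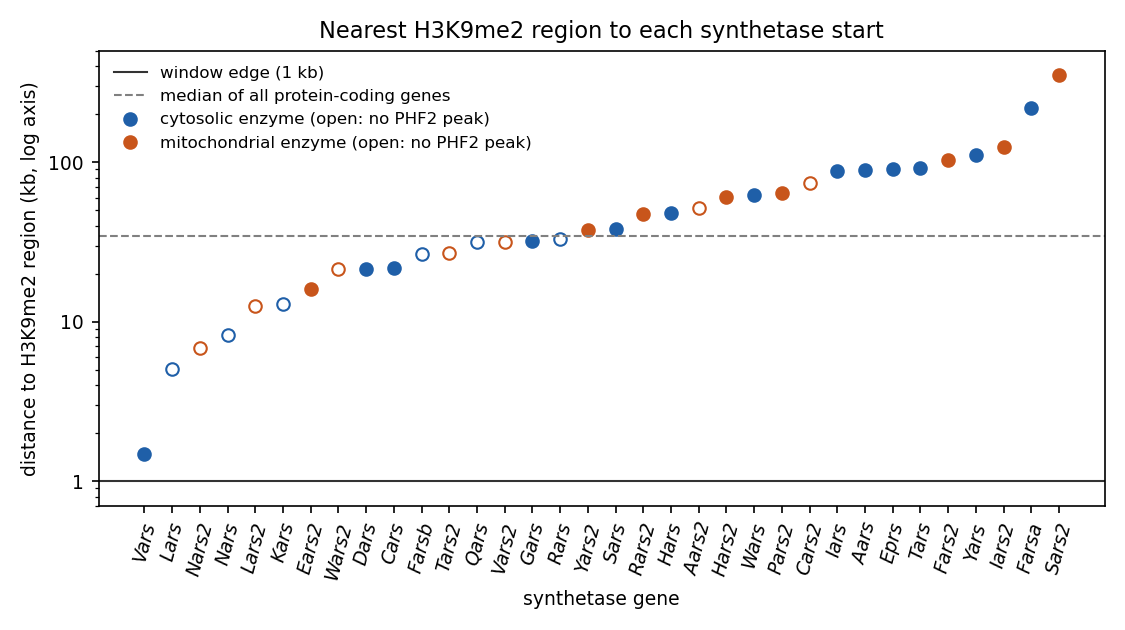
Distance from the starts of each of the 34 synthetase genes to the nearest H3K9me2 region (kb, log axis), ordered by distance, blue for cytosolic and orange for mitochondrial enzymes, open where the gene had no PHF2 peak. The solid line is the 1 kb edge of the promoter window, which no gene reaches, and the dashed line is the median of all protein-coding genes; Vars is nearest, at 1469 bp.

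Inside the gene bodies there were 13 H3K9me2 regions, all in introns, in 5 genes. Fars2, the mitochondrial phenylalanyl enzyme and by far the longest of these genes (608869 bp), held 5. Nars2 held 4, Wars2 held 2, and Lars2 and Dars held 1 each. Mitochondrial genes thus held 12 of the 13 in 1.15 Mb and cytosolic genes 1 in 0.626 Mb. For the family this was 7.31 regions per Mb of gene body, and for all protein-coding genes 13.0 per Mb. Of the synthetase genes 14.7% held a region in the body, and of all protein-coding genes 24.3%. Dars had the highest PHF2 score and also 1 intronic region (chr1:128395792-128395864), which lay 20329 bp from its PHF2 peak.

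The genes around tRNA charging were counted in the same way. The 3 scaffold proteins of the multisynthetase complex all had a peak, Aimp1 (210), Aimp2 (147.16) and Eef1e1 (251.39). Of the synthetase genes outside the set that are reported here, Mars2 (496.58) and Mars (137.78) had a peak and Tarsl2 had none. Mitochondria make glutaminyl-tRNA with an amidotransferase in place of a synthetase, and all 3 of its subunit genes had a peak, Qrsl1 (294.46), Gatb (190.09) and Gatc (206.82). Mtfmt, which formylates the initiator methionyl-tRNA, had none. Among genes that clear or edit mischarged tRNA only Dtd2 had one (246.78), and Dtd1, Aarsd1 and Prorsd1 had none. The CpG deciles gave 1.7 of the 3 scaffold genes and 1.57 of the 3 synthetase genes outside the set. They gave 2.17 of the 4 genes of the amidotransferase and Mtfmt, and 1.8 of the 4 that clear or edit mischarged tRNA.

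Elongation factors bring charged tRNA to the ribosome and move it along, and the list used here also takes in factors that recycle. Peaks lay at 5 of 6 cytosolic genes of this list, led by Eef1a1 (972.1) and Eef2 (349.24), with none at Eef1a2. In mitochondria 3 of 4 had one, Gfm2 (303.12), Gfm1 (161.58) and Tsfm (134.22), and Tufm had none. The CpG deciles gave 2.74 of the 6 cytosolic and 1.54 of the 4 mitochondrial genes of this list. Genes of the amino acid response, the programme of ATF4, had 17 of 20 (85.0%, 95% Wilson interval 64.0% to 94.8%), where the CpG deciles gave 9.19. They were led by Atf4 itself (748.24), Psat1 of serine synthesis (577.3), and Slc3a2 (534.68) and Slc7a5 (508.11), the 2 chains of a transporter of large neutral amino acids. Their median score was 316.2, and that of the synthetase genes 155.52. Genes with the symbols of cytosolic ribosomal proteins had peaks at 77 of 83 (92.8%, median score 317.8), where the CpG deciles gave 44.4. Those of mitochondrial ribosomal proteins had 48 of 78 (61.5%, median score 183.1), close to the share of the synthetase genes, and the deciles gave 37.0. Those of translation initiation factors had 33 of 54 (61.1%), where the deciles gave 27.7. None of these differences between lists was tested.

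**Figure D5:**
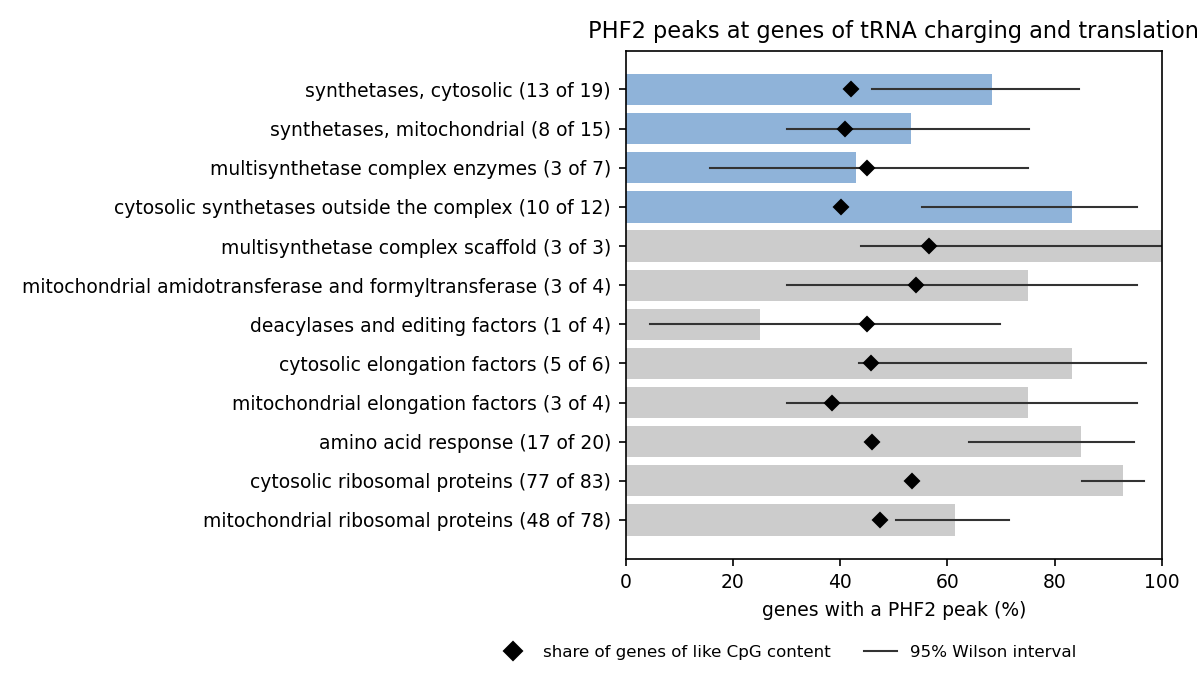
Share of genes with a PHF2 peak (%) in the synthetase groups (blue) and in other lists of tRNA charging and translation (grey), with counts beside each name. Black lines are 95% Wilson intervals, and diamonds are the share that genes of the same CpG deciles had; the bar lies right of the diamond for every list except the multisynthetase complex enzymes and the deacylases and editing factors.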

How the data were processed

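ChIP-seq of PHF2 and of H3K9me2 was analysed from 1 deposited list for each target. Per the file headers, the authors called PHF2 peaks with MACS in Galaxy, and the deposited score is 1 value per peak. The deposited H3K9me2 list carries a score of 0 throughout, and the sources used here do not state its caller. Bowtie2 and mm10 appear in the submitters' processing notes. Depth is unknown. A total of 60 H3K9me2 regions on scaffolds were left out.

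With Python 3.11.15, numpy 2.4.6 and scipy 1.17.1, peaks were overlapped with 1 kb on either side of the starts of protein-coding transcripts of 21670 protein-coding genes (GENCODE M21 on GRCm38, the mm10 assembly). Coordinates are 1-based. CpG content came from the genome sequence, and promoter sequences came from RefSeq (GRCm38.p6). Overlap and composition steps were tested on simulated data. Figures were drawn with matplotlib 3.10.9.

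The members and lists were chosen with earlier results of these data known. With 1 sample per target no test was made, and counts are set beside those of all protein-coding genes or of genes in the same CpG decile. All 34 genes are accounted for. A gene of 1 list is not reported here. Given in full are the 6 highest and 4 lowest scores, genes without a peak in the upper 3 CpG deciles, genes that share a peak, and genes with an H3K9me2 region within 5 kb. Alternatives were other windows, starts, overlaps, score limits and CpG groupings.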

Additional observations from a re-analysis of the deposited data

How the results depend on the processing

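The count of synthetase genes with a PHF2 peak stayed between 21 and 22 of 34 with windows of 500 bp, 2 kb and 5 kb, with the 5'-most start, with basic transcripts, with the principal transcript (an alternative chosen after seeing the data), and with the centre or at least 50% of the peak in the window. It fell with the score limit. With the higher-scoring 50%, 25% and 10% of peaks it was 7, 3 and 1 of all members. For the cytosolic genes it was 5, 2 and 1, and for the mitochondrial ones 2, 1 and 0. Over all protein-coding genes the share went from 29.1% to 14.8%, 7.35% and 2.84%. The count with an H3K9me2 region was 0 in each alternative except windows of 2 kb and of 5 kb, where it was 1 (Vars). The ratio to genes of like CpG content was 1.5 and 1.48 with other CpG groupings, 1.62 with the 5'-most start and 1.40 with windows of 500 bp. It was 1.94 with deciles of GC content in place of CpG, and was 0.989 with the higher-scoring 50% of peaks. Motif counts rest on the window: over 1 kb on either side of the 5'-most start, the C/EBP-ATF core was in 9 of 25 synthetase genes and in 22.3% of all genes. No paired analysis was possible because each target had 1 sample.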

Other observations

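Phgdh, which encodes the first enzyme of serine synthesis, was the only one of the 20 genes of the amino acid response with an H3K9me2 region at a promoter. Over all protein-coding genes 2.3% had one, so 1 gene in a list of this size does not stand out. Phgdh was also among the 17 of these 20 genes with a PHF2 peak. The region (chr3:98337562-98337653) lay 14 bp from an annotated Phgdh start, and the PHF2 peak (score 303.88, chr3:98338649-98339907) did not overlap it.

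Regions within 5 kb of a start, present at only 1 of the 34 synthetase genes, were found at 3 of the 4 genes of deacylases and editing factors, Aarsd1 (2106 bp), Dtd2 (2501 bp) and Prorsd1 (4717 bp). The background for this distance is 12.2% of protein-coding genes. Genes were singled out here after their values were seen, and no test was made.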
